A study of Mus musculus with 12 samples.

Results

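Voltage-gated sodium channels open on depolarization and carry the rising phase of the action potential. Each channel has a large alpha subunit, which forms the pore and senses voltage, and smaller beta subunits, single-pass membrane proteins with an extracellular immunoglobulin domain that tune gating, delivery to the membrane and adhesion. In forebrain neurons the channels are concentrated at the axon initial segment and the nodes of Ranvier, where ankyrin G, beta IV spectrin and neurofascin hold them in place.

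The genes described here are 4 alpha subunits (Scn1a, Scn2a1, Scn3a and Scn8a) and 3 beta subunits (Scn2b, Scn3b and Scn4b), 7 of the 20504 entries of the coding sequence (CDS) table. They were chosen by name, and Scn2a1 is the symbol the table uses for the brain alpha subunit Scn2a. All 7 also passed the filter on low counts in every comparison. The table holds 14 Scn symbols in all, and the other 7 are not described.

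The data are 12 libraries from the brains of 6 adult mice that all carried the Camk2a-RiboTag genotype, in which Cre expressed from the Camk2a promoter switches on an HA-tagged ribosomal protein Rpl22 in excitatory principal neurons of the forebrain. Mice A and B were the controls, called untreated in the labels and given vehicle by gavage according to the methods. AZD-8055, which blocks the kinase mTOR at its ATP site, was gavaged into mice C and D at 100 mg/kg 1 h before sacrifice. These 4 mice each yielded ligation-free ribosome profiling of footprints from all cells of the frontal tissue, not of tagged cells alone, and RNA-Seq of poly(A) RNA. Mice E and F are listed without a drug dose. From them, RNA of the homogenate (input) and of polysomes precipitated through the HA tag (IP) was sequenced. Every group therefore has n = 2 mice.

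The libraries held 9395385 to 10649939 CDS counts for RNA-Seq of mice A to D, 3503873 to 9259938 for footprints, 12580397 to 15585831 for input and 9309496 to 9975629 for IP. The control footprint library of mouse A was the deepest footprint library. Markers of all 8 cell classes examined were detected in every library, with no marker gene at 0. In the IP, 4 of 10 markers of excitatory neurons were called higher and none lower, while 9 of 10 interneuron, 7 of 8 astrocyte, 8 of 8 oligodendrocyte, 5 of 5 oligodendrocyte precursor, 7 of 8 microglial and 8 of 8 endothelial markers were called lower (edgeR, adjusted p under 0.05 and fold over 2). Of the 9 striatal markers 2 were called lower and 0 higher, with log2 values from -1.57 (Pde10a) to 0.86 (Ppp1r1b). Over all genes 11.7% were called higher and 21.8% lower.

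The sodium channel genes lie in 3 places of the mouse genome (RefSeq positions, build GRCm38). Scn3a (chr2:65457118-65567591), Scn2a1 (chr2:65620764-65767447) and Scn1a (chr2:66270781-66440837) are neighbours on chromosome 2. Scn8a lies alone at chr15:100869863-101045938. The 3 beta subunit genes share chromosome 9, with Scn2b (chr9:45117876-45130070) beside Scn4b (chr9:45138624-45154155) and Scn3b at chr9:40269216-40291618.

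The first question was how strongly each subunit mRNA was loaded with ribosomes in control brain. Translation efficiency (TE) is the ratio of footprints to RNA on the CDS, each as a count divided by the library's size factor. All 3 beta subunits had a higher TE than every alpha subunit in both control mice. Scn2b stood highest with a TE of 3.02 and Scn1a lowest with 1.07, on a scale where the all-gene median of the log2 TE was 0.028 (mouse A) and -0.0087 (mouse B). In whole-tissue libraries, fewer cells of a type and less RNA per cell cannot be told apart, which holds for each level of RNA or footprints and each change in them below.

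Among the beta subunits, Scn2b, which is joined to the alpha subunit by a disulfide bond, had 661 and 637 RNA counts and 1690 and 897 footprint counts in mice A and B. Its normalised counts were 489 and 437 for RNA and 1386 and 1402 for footprints. Its log2 TE was 1.50 and 1.68 (mean 1.59 ± 0.13, SD, n = 2), above 96.2% of the genes with a TE. The footprint counts exceeded the RNA counts in both mice although the footprint libraries were the shallower ones.

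Scn3b, a non-covalently bound beta subunit, gave 235 and 252 normalised RNA counts and 573 and 557 normalised footprint counts in mice A and B. Its log2 TE was 1.28 and 1.14 (mean 1.21 ± 0.10, SD, n = 2). Scn4b, the disulfide-linked subunit known for its part in resurgent sodium current, gave 737 and 743 normalised RNA counts and 1529 and 1674 normalised footprint counts. Its log2 TE was 1.05 and 1.17 (mean 1.11 ± 0.085, SD, n = 2), so its range overlapped that of Scn3b, and the order of these neighbours was not resolved.

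Among the alpha subunits, Scn2a1, the main channel of excitatory neurons early in development and of their proximal initial segment, gave 1729 and 1575 normalised RNA counts and 3400 and 2875 normalised footprint counts. Its log2 TE of 0.98 and 0.87 (mean 0.92 ± 0.076, SD, n = 2) was the highest of the alpha subunits and lay below Scn4b by 0.19 in the mean. Scn8a, the main channel of mature nodes and of the distal initial segment, gave 1519 and 1580 normalised RNA counts and 2369 and 2167 normalised footprint counts. Its log2 TE was 0.64 and 0.46 (mean 0.55 ± 0.13, SD, n = 2), clearly separated from Scn2a1 in these mice.

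Scn3a, the alpha subunit best known from the embryonic brain, gave 358 and 339 normalised RNA counts and 454 and 383 normalised footprint counts. Its log2 TE was 0.35 and 0.17 (mean 0.26 ± 0.12, SD, n = 2). Scn1a, the main alpha subunit of fast-spiking interneurons and the gene most often affected in Dravet syndrome, gave 1064 and 990 normalised RNA counts and 1129 and 1068 normalised footprint counts. Its log2 TE was 0.086 and 0.11 (mean 0.098 ± 0.016, SD, n = 2), near the middle of all genes at percentile 54.0. Going down the whole order (Scn2b, Scn3b, Scn4b, Scn2a1, Scn8a, Scn3a, Scn1a), Scn3b and Scn4b were the only neighbours whose ranges over the 2 mice overlapped.

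**Figure D1:**
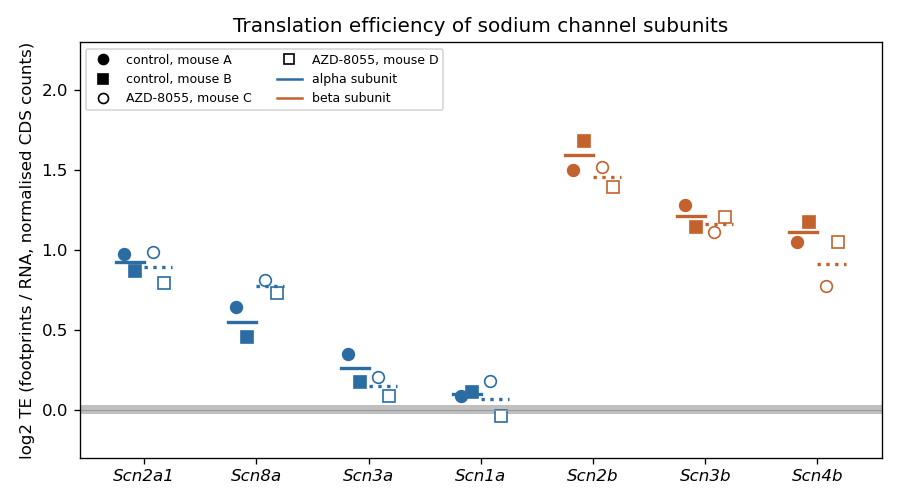
Log2 TE (vertical axis, footprints over RNA from normalised CDS counts) of each subunit in the 4 mice, with filled points for control mice A and B, open points for AZD-8055 mice C and D, solid and dotted lines for the group means, and a grey band for the range of the all-gene medians over the 4 mice. The control points of the 3 beta subunits lie at 1.05 or above and those of the 4 alpha subunits at 0.98 or below.

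Tested across all genes (edgeR quasi-likelihood test, footprints against RNA in mice A and B, Benjamini-Hochberg adjustment, call at adjusted p under 0.05 and fold over 2), 3 of 7 subunits were called higher in footprints, against 13.3% of all 11891 genes tested, and 0 were called lower, against 17.5%. The 3 called genes were the beta subunits. Scn2b had a log2 ratio of 1.63 (SE 0.080, 3.10-fold, adjusted p = 5.3e-10, edgeR), Scn3b of 1.25 (SE 0.096, adjusted p = 4.41e-08) and Scn4b of 1.15 (SE 0.079, adjusted p = 1.42e-08).

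No alpha subunit reached the 2-fold limit. Scn2a1 came just short of it, with a 1.96-fold ratio (log2 0.97, SE 0.088, edgeR adjusted p = 2.67e-07). Scn8a was 1.51-fold higher in footprints (log2 0.59, SE 0.076, edgeR adjusted p = 8.56e-06) and Scn3a 1.25-fold (log2 0.32, SE 0.10, edgeR adjusted p = 0.0105). For Scn1a the log2 ratio was 0.14 with a 95% interval from -0.011 to 0.30 (edgeR adjusted p = 0.0868). Without the fold limit, 6 subunits passed, all but Scn1a, which passed as well with the mouse as a block (adjusted p = 0.0458).

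Summarised by class, the median log2 TE of the alpha subunits was 0.49 and 0.31 in mice A and B, and that of the beta subunits 1.28 and 1.17. The difference, alpha minus beta, was -0.79 and -0.86 (mean -0.82 ± 0.048, SD, n = 2). Its sign rests on counting RNA on the CDS. With exon counts for the RNA libraries it was 0.85, since only 12.0 to 14.5% of the exon counts of the beta subunits lay on the CDS in control RNA, against 35.3 to 50.9% for the alpha subunits. The footprints were counted on the CDS alone, so the CDS ratio compares the same stretch of mRNA in both assays.

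Of 16 genes whose proteins bind, anchor or process sodium channels, 6 were called higher in footprints and 1 lower, with a median log2 ratio of 0.54 against -0.0051 over all genes (edgeR). The called genes with the largest ratios were Sptbn4, the beta IV spectrin of the initial segment, at -2.00 (SE 0.086), Tnr, the perinodal matrix protein tenascin-R, at 1.85 (SE 0.085), Csnk2a1, a catalytic subunit of casein kinase 2, at 1.52 (SE 0.073), and Cntn1, the adhesion molecule contactin 1, at 1.43 (SE 0.076). The partners thus spread more widely than the channel subunits, whose log2 ratios ran from 0.14 to 1.63. The 8 pore-forming subunits of voltage-gated calcium channels, structural relatives of the sodium channel alpha subunits, had a median of -0.79, with 1 called higher and 3 lower. They ran from -2.25 for Cacna1g, a T-type channel, to 2.43 for Cacna1e, the R-type channel.

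The RiboTag comparison asks which of these mRNAs are associated with tagged ribosomes of Camk2a-Cre neurons. The enrichment is IP over input, from exon counts divided by size factors. Each beta subunit had an IP level above its input level in mice E and F. Scn1a, Scn2a1 and Scn3a were lower in both. Scn8a was near the all-gene median, which was 0.089 and 0.074 on the log2 scale in mice E and F. The cell marker changes given above moved with this comparison, and their part in it was not tested.

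Scn3a had 1376 and 1824 exon counts in the inputs of mice E and F and 389 and 447 in the IPs. Its log2 enrichment was -1.27 and -1.32 (mean -1.29 ± 0.033, SD, n = 2), the lowest of the subunits. Scn1a went from 3317 and 5876 input counts to 1254 and 1981 IP counts, a log2 enrichment of -0.85 and -0.86. These 2 alpha subunits varied little between the mice relative to their distance from the all-gene median.

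Scn2a1 had 7415 and 11268 input counts and 3123 and 4193 IP counts, and its log2 enrichment was -0.70 and -0.71. Scn8a, with 9211 and 11944 input counts and 6527 and 8876 IP counts, had a log2 enrichment of 0.055 and 0.28. It was therefore the alpha subunit with the highest IP signal relative to input in both mice.

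Scn2b had 6771 and 9811 input counts and 7855 and 9123 IP counts, with a log2 enrichment of 0.77 and 0.61 (mean 0.69 ± 0.11, SD, n = 2), the highest of the subunits. Scn4b had 6917 and 9556 input counts and 6453 and 6584 IP counts, with a log2 enrichment of 0.45 and 0.17. Scn3b had 3575 and 3862 input counts and 2837 and 2799 IP counts, with a log2 enrichment of 0.22 and 0.25. Scn3b, Scn4b and Scn8a overlapped one another, with values between 0.055 and 0.45.

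In the test across all genes (edgeR, exon counts, adjusted p under 0.05 and fold over 2), 1 of 7 subunits was called lower in IP, against 21.8% of 13254 genes, and 0 were called higher, against 11.7%. The called gene was Scn3a (log2 -1.41, SE 0.099, edgeR adjusted p = 9.64e-05). Scn1a (log2 -0.97, SE 0.20, adjusted p = 0.00553), Scn2a1 (log2 -0.82, SE 0.12, adjusted p = 0.00133) and Scn2b (log2 0.57, SE 0.092, adjusted p = 0.00196) passed the p threshold in edgeR without reaching 2-fold. Scn8a (log2 0.057, 95% interval -0.20 to 0.31), Scn3b (0.11, -0.20 to 0.43) and Scn4b (0.20, -0.040 to 0.44) did not pass it. With the mouse as a block, which compares IP and input within an animal, Scn4b passed the p threshold (edgeR adjusted p = 0.00766), without reaching 2-fold, and Scn8a (0.474) and Scn3b (0.113) did not.

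By class, the alpha median of the log2 enrichment minus the beta median was -1.23 for mouse E and -1.03 for mouse F (mean -1.13 ± 0.14, SD, n = 2). Both mice had a lower alpha than beta median. In mouse E the classes did not overlap, the highest alpha subunit being at 0.055 and the lowest beta subunit at 0.22. In mouse F Scn8a, at 0.28, lay above Scn4b and Scn3b.

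These enrichments depend on which part of the transcript is counted. In the inputs, 58.5 and 54.0% of the exon counts of Scn2a1 lay on the CDS, and in the IPs 16.7 and 12.1%. For Scn1a the share was 59.5 and 58.2% in input and 21.5 and 17.6% in IP. For Scn8a it was 42.3 and 42.0% in input and 15.2 and 13.8% in IP. The beta subunits had low shares already in input, as with Scn2b at 15.9 and 13.9%, which was 5.49 and 4.37% in IP.

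The IP share was below the input share for all 7 subunits in mice E and F, with no overlap. Over 11430 genes the median share on the log2 scale fell by 0.34 between input and IP, and the subunits ranged from -1.30 for Scn4b (percentile 11.1) to -1.98 for Scn2a1 (percentile 3.07). The loss of CDS counts was thus larger in every subunit than in the median gene, in alpha and beta subunits alike. What underlies it was not tested.

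**Figure D2:**
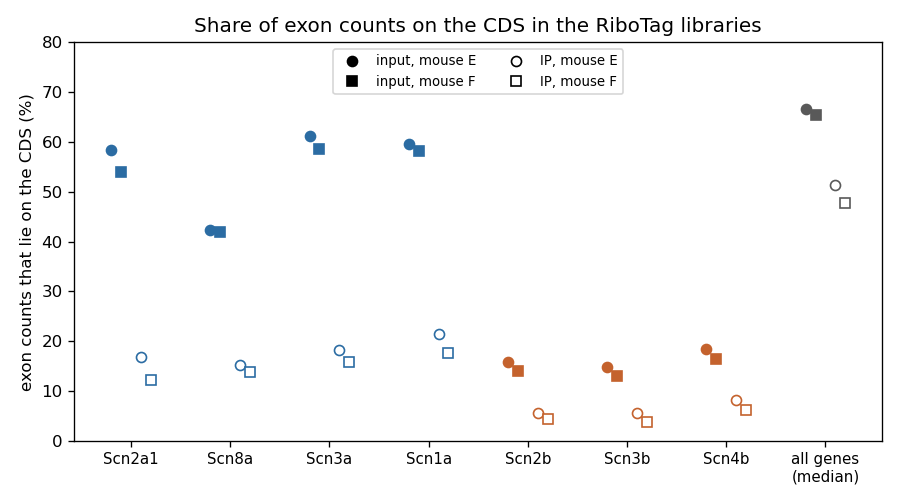
Percent of exon counts that lie on the CDS (vertical axis) for each subunit and for the median of all genes, with filled points for input and open points for IP of mice E and F. In every subunit both IP points lie below both input points, for example at 16.7 and 12.1% against 58.5 and 54.0% for Scn2a1.

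With CDS counts in place of exon counts, 5 subunits were called lower in IP (edgeR), namely Scn1a (log2 -2.12), Scn2a1 (-2.34), Scn3a, Scn8a (-1.02) and Scn3b (-1.01), while Scn2b (-0.57) and Scn4b (-0.63) were lower without reaching 2-fold. With exon counts outside the CDS, an alternative added after the data were seen, 0 were called, with 3 at an unadjusted p under 0.05, and Scn3a had a log2 ratio of -0.87 (adjusted p = 0.000489). The alpha minus beta difference kept its sign, at -1.57 on CDS counts and -0.32 outside the CDS. The direction relative to input for Scn8a, Scn2b, Scn3b and Scn4b is therefore not settled by these libraries, while Scn1a, Scn2a1 and Scn3a were below 0 in all of these counts.

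**Figure D3:**
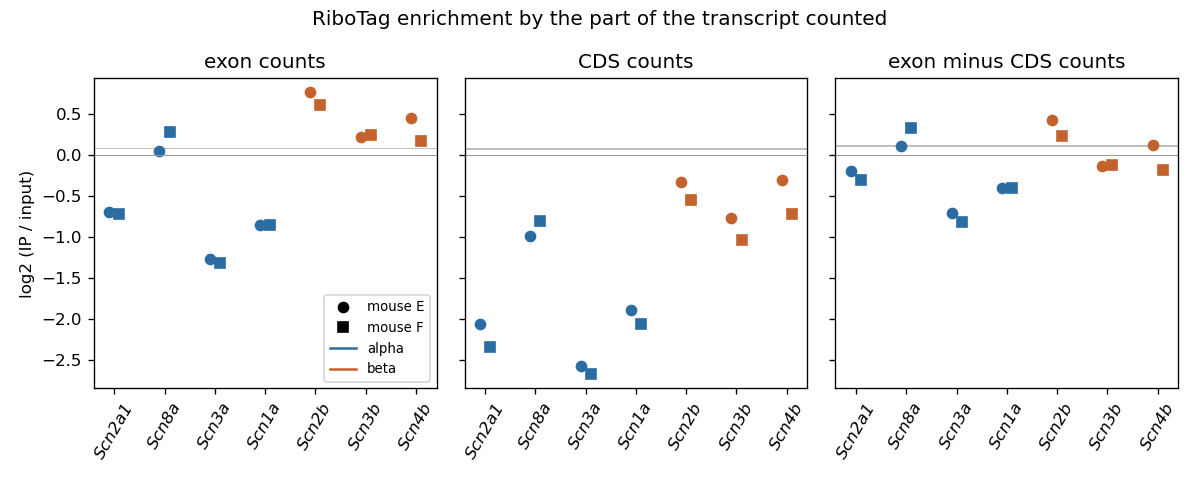
Log2 IP over input (vertical axis) of each subunit in mouse E (circles) and mouse F (squares), from exon counts, CDS counts and exon counts outside the CDS, with blue for alpha subunits, orange for beta subunits and a grey band for the all-gene medians. Scn3a is the lowest subunit in each panel, at -1.27 and -1.32 on exon counts.

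Among the partners of the channel, 1 of 16 was called higher in IP, Csnk2b, the regulatory subunit of casein kinase 2 (log2 1.24, SE 0.095, edgeR adjusted p = 0.000119), and 2 were called lower, Tnr (log2 -2.79, SE 0.11, adjusted p = 4.86e-05) and Fgf11, a fibroblast growth factor homologous factor (log2 -1.56, SE 0.35, adjusted p = 0.00732). The partner median was 0.051, against -0.034 over all genes. Of the calcium channel pore subunits, 5 of 8 were called lower and 0 higher, with a median of -1.23 and values from -1.80 for Cacna1e to -0.13 for Cacna1i, a T-type channel. The 4 sodium channel alpha subunits had a median of -0.90 in the same test and the 3 beta subunits 0.20.

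The third comparison asks what AZD-8055 did to these mRNAs and their translation within 1 h. Scn4b RNA was higher in both treated mice than in either control mouse, by 1.29-fold. No other subunit passed the test in RNA, none passed it in footprints, and none passed it in TE. The 3 readouts come from the same 4 mice and share their controls.

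Scn4b had 996 and 1083 RNA counts in control mice A and B and 1405 and 1468 in treated mice C and D. Its normalised RNA counts were 737 and 743 against 983 and 960, and the groups did not overlap. Its normalised footprint counts were 1529 and 1674 against 1681 and 1984, where the groups lay close together without overlap. The log2 RNA change was 0.37 (SE 0.067, edgeR adjusted p = 0.0401), and it was the 1 of 7 subunits called higher, against 0.0575% of 12182 genes, with 0 called lower, against 0.0903%.

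Leaving out each mouse in turn, which leaves 1 arm with a single mouse that is assumed to vary like the other group, gave 0.36 to 0.39 with edgeR adjusted p of 0.104 to 0.143, and exon counts gave 0.30 with adjusted p = 0.121, so that no subunit was called in any of these fits, while the size of the change stayed close to 0.37 without each mouse. Scn4b is known for high expression in the striatum, and each of the 9 striatal marker genes reported here also had a positive log2 RNA change, with a median of 0.23 against -0.0035 over all genes. They ran from 0.16 for Tac1, the substance P precursor (edgeR adjusted p = 0.659), to 0.40 for Drd1a, the D1 dopamine receptor (edgeR adjusted p = 0.0952), and none of these 9 passed the test. Their summed level was 1931 and 1851 CPM (CDS counts scaled to the library total) in control RNA and 2118 and 2275 in treated RNA, and 1965 and 2005 against 2119 and 2374 in footprints. The part of this shift in the Scn4b value was not tested.

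**Figure D4:**
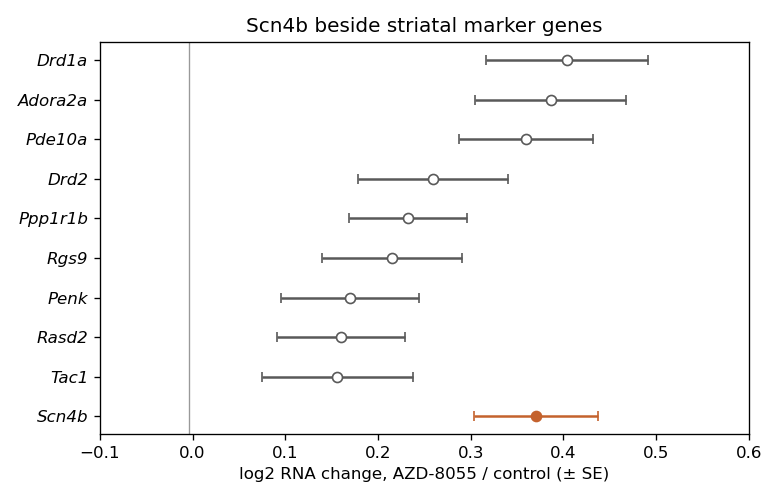
Log2 RNA change with AZD-8055 (horizontal axis, edgeR estimate ± SE, 2 mice per group) for Scn4b and 9 striatal marker genes, with filled points where the adjusted p was under 0.05 and a grey line at the all-gene median. Every estimate lies to the right of that line, Scn4b at 0.37 and Drd1a at 0.40.

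For the other beta subunits, Scn2b had 489 and 437 normalised RNA counts in control and 533 and 533 in treated mice, a log2 change of 0.18 (SE 0.082, edgeR adjusted p = 0.581). Scn3b had 235 and 252 against 260 and 235, a log2 change of -0.0050 (95% interval -0.23 to 0.22). The treated and control values of Scn2b did not overlap, and those of Scn3b did.

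The RNA of the alpha subunits changed by between -0.075 (Scn8a) and 0.087 (Scn3a) on the log2 scale, with edgeR adjusted p from 0.825 to 0.923. Normalised RNA counts of Scn1a were 1064 and 990 in control and 1043 and 1123 in treated mice. Those of Scn2a1 were 1729 and 1575 against 1787 and 1663, and those of Scn8a 1519 and 1580 against 1511 and 1478. For each of the 4 alpha subunits the 95% interval of the RNA change lay within -0.23 and 0.27.

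In footprints, 0 of 7 subunits were called, against 0.0468% of 10695 genes called higher and 0.982% called lower (edgeR). Scn8a had the only unadjusted p under 0.05, with 2369 and 2167 normalised footprint counts in control and 2658 and 2456 in treated mice (log2 0.17, SE 0.071, edgeR adjusted p = 0.357). Scn4b had a log2 footprint change of 0.20 (SE 0.11, adjusted p = 0.456). Leaving out each mouse in turn moved the Scn4b value widely, to 0.050 without mouse D (adjusted p = 0.913), 0.098 without mouse A (adjusted p = 0.942), 0.31 without mouse B (adjusted p = 0.636) and 0.34 without mouse C (adjusted p = 0.00564). The fit without mouse C, which leaves mouse D as the only treated mouse and takes the spread from the controls, called 355 genes higher and 482 lower of 10970, against 5 and 105 in the fit of all 4 mice. DESeq2 also called 0 subunits, with 0 at an unadjusted p under 0.05.

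In TE, 0 of 7 subunits were called (edgeR, treatment by assay term), against 0.00848% of 11797 genes called higher and 0.297% called lower, and DESeq2 also called 0. By either tool 1 subunit had an unadjusted p under 0.05. In edgeR this was Scn8a, whose log2 TE was 0.64 and 0.46 in control and 0.81 and 0.73 in treated mice, so that the groups did not overlap (log2 change 0.23, SE 0.10, adjusted p = 0.705). The other 6 changed by between -0.18 (Scn4b) and -0.030 (Scn1a), with 95% intervals that all spanned 0.

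Scn4b had the lowest fitted TE change with all 4 mice, its log2 TE being 1.05 and 1.17 in control and 0.77 and 1.05 in treated mice. The value of mouse D lay just below that of control mouse A, so the groups touched without overlapping. The fitted change of Scn4b was -0.035 without mouse C and -0.35 without mouse D, and it was not the lowest without mouse B (Scn3a -0.18, Scn4b -0.10) or without mouse C (Scn2b -0.17). Scn2b had 1.50 and 1.68 in control and 1.52 and 1.39 in treated mice, which overlap. Scn3b (1.11 and 1.21 in treated mice), Scn2a1 (0.99 and 0.79), Scn3a (0.21 and 0.087) and Scn1a (0.18 and -0.041) also overlapped their control values.

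**Figure D5:**
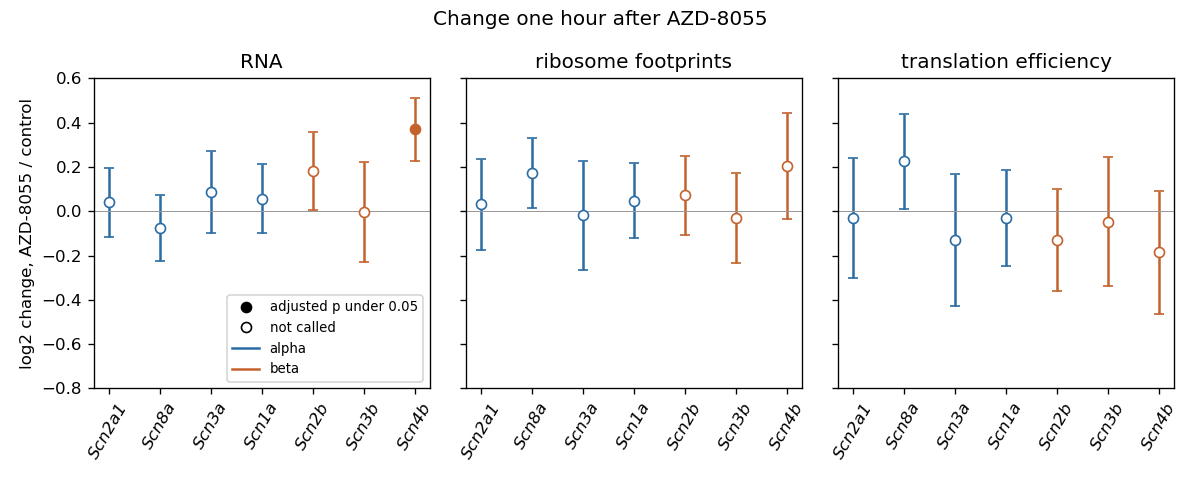
Log2 change with AZD-8055 (vertical axis, edgeR estimate with its 95% interval, 2 mice per group) of RNA, ribosome footprints and TE for the 4 alpha (blue) and 3 beta (orange) subunits, filled where the adjusted p was under 0.05. The RNA of Scn4b, at 0.37, is the only filled point.

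The class difference in log2 TE, alpha minus beta, was -0.60 in mouse C and -0.80 in mouse D, against -0.79 and -0.86 in the controls. The treated mean was -0.70 ± 0.14 (SD, n = 2), and it differed from the control mean by 0.12. In mouse D the beta subunits again all lay above the alpha subunits, whereas in mouse C Scn4b lay below Scn2a1 and Scn8a. With 2 mice against 2, an exact permutation test cannot go below 0.333, so no test is given.

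None of the 16 partner genes (15 in footprints, where Fgf11 was below the count filter) and none of the 8 calcium channel pore subunits was called in RNA, footprints or TE (edgeR). The calcium channel subunits had TE changes from 0.080 (Cacna1d, an L-type channel) to 0.50 with a median of 0.21. The highest, Cacna1e (SE 0.11, edgeR adjusted p = 0.0333), passed the p threshold without reaching 2-fold, as 1 of 9 genes that were higher when no fold limit was set. Compared with these, the partners had a median of 0.13 and all genes of -0.011. The sodium channel alpha subunits had a median TE change of -0.031 and the beta subunits of -0.13.

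Over the 12 libraries, which mix footprints, RNA, input and IP, the CDS levels of the subunits were correlated to different degrees. The log2 normalised counts of Scn1a and Scn3a had a Pearson correlation of 0.98, and those of Scn3b and Scn4b of 0.96, while Scn1a and Scn2b had 0.47. The libraries share animals and assays, so these values describe the libraries only. Among 12007 genes, the profiles most like that of Scn2b were those of Prkacb, a catalytic subunit of protein kinase A, Spock2, Arl8b, Usp22 and Napb, at 0.995 to 0.996. Those most like that of Scn1a were Kdr, the endothelial receptor for vascular endothelial growth factor, Anapc1, Socs4, Sema6a and Ttc37, at 0.986 to 0.990.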

How the data were processed

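Total RNA was sequenced after poly(A) selection and ribosome footprints after ligation-free library construction. The authors deposited unnormalized counts per gene, over the CDS (12 libraries) and over exons (the 8 libraries that are not footprints). Per the labels, the tools were Bowtie2, TopHat2 and HTSeq and the build mm10; versions and the strand setting are not given in the sources used here. Uniquely aligned reads were counted, so reads shared by the paralogous alpha subunits are absent. Without the strand setting, how reads over overlapping antisense genes were counted is not known. Replicates differed by more than sampling noise (chi-square per degree of freedom 2.61 to 17.4). P-values rest on 2 mice per group, and footprint depth was 3503873 to 9259938 counts.

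TE and enrichment used DESeq2 1.42.0 size factors. Tests used edgeR 4.0.16 (TMM, quasi-likelihood F-test, Benjamini-Hochberg adjustment over all genes tested, threshold 0.05) after removing genes whose mean count per library was under 37. A fold over 2 was required as well for calls in TE and IP. A TE per mouse needed at least 75 counts over both mice of a group. Scripts ran in R 4.3.3 and Python 3.11.15 and were tested on simulated data. In 457 of 20504 genes an exon count was below the CDS count, and they were left out of the counts outside the CDS. The RiboDiff tool of the study was not available. Date-like symbols (27 entries, 0.350% of counts) stayed in the tables unnamed.

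Mouse letters pair the libraries of 1 animal. Deviations from group means correlated across genes at 0.257 (A and B), 0.241 (C and D) and 0.563 (E and F).

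The members and the lists were chosen with earlier results of these data known. All 7 members are named throughout, of the partners at most the 4 with the largest called change, of the calcium channel subunits the lowest and the highest, and the 5 genes most alike (Pearson, log2 of normalised count + 1) for the subunits with the highest and the lowest TE. Of the striatal markers, 1 is not reported here, and Tac1, Drd1a, Pde10a and Ppp1r1b were named after their values were seen, as the lowest and the highest of the other 9. Alternatives were DESeq2, RLE or total-count scaling, no filter, exon or CDS counts exchanged, the mouse as a block, no fold limit and leaving out each mouse.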

Additional observations from a re-analysis of the deposited data

How the results depend on the processing

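The 3 calls in baseline TE held under DESeq2, RLE factors, total-count scaling, no filter and the mouse as a replicate block, and without a fold limit 6 subunits passed. Treating the mouse as a block changed no call that needs 2-fold (3 higher in baseline TE, 0 in the TE change, 1 lower in the IP), though Scn1a in baseline TE and Scn4b in the IP then passed the p threshold. The Scn4b RNA call was absent on exon counts (0 subunits) and without each mouse (0 in each, log2 0.36 to 0.39). Without mouse C 1 subunit was called in footprints, and 0 without each of the others. In the IP the count called lower was 3 with total-count scaling (which moves the all-gene median to -0.31), 3 without a fold limit (1 higher), 5 on CDS counts and 0 outside the CDS. Alpha minus beta in enrichment was -1.57 on CDS counts and -0.32 outside the CDS, and in TE with exon RNA counts 0.85 in control and 1.05 in treated mice. Leaving out a mouse from baseline TE or the IP leaves 1 animal, so no test was made.

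Directions turned as follows on the log2 scale. In the IP, total counts gave Scn8a -0.22, Scn3b -0.16 and Scn4b -0.081. CDS counts gave Scn8a -1.02, Scn2b -0.57, Scn3b -1.01 and Scn4b -0.63, and counts outside the CDS Scn3b -0.24 and Scn4b -0.13. The other turns were of uncalled changes near 0, and their cause was not tested. In TE, total counts gave Scn1a 0.0071 and Scn2a1 0.0056, and leaving out each mouse gave Scn2a1 -0.10 to 0.048 (0.0020 without A), Scn1a -0.11 to 0.064 (0.0063 without B) and Scn3b -0.11 to 0.026. In RNA, exon counts gave Scn3a -0.032 and Scn3b 0.016, and leaving out each mouse gave Scn2a1 -0.014 to 0.10, Scn1a -0.0065 to 0.12 and Scn3b -0.070 to 0.059. In footprints, leaving out each mouse gave Scn3a -0.089 to 0.078 and Scn2a1 -0.096 to 0.15.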
